A study of Mus musculus with 12 samples.

Results

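The comparison described here is the response of wild-type (WT) mouse embryonic stem cells to retinoic acid (RA), read from all genes with enough counts. It sets the 3 libraries titled as WT cells after RA against the 3 libraries titled as untreated WT cells, which are 6 of the 12 libraries of the series. Of the 55416 genes in each file, 17940 had enough counts to be tested. Every library was made from the Bl/6J line of mouse embryonic stem cells. The undifferentiated WT cells had been kept with PD, an inhibitor of the kinase MEK (1 µM), with CHIR, an inhibitor of the kinase GSK3 (3 µM), and with ascorbic acid. The RA group had spent 2 days with RA at 1.5 mg/L in a medium without the cytokine LIF (leukaemia inhibitory factor), which supports self-renewal. Whether ascorbic acid and the inhibitors stayed in the medium during RA is not stated in the labels, and neither is whether the undifferentiated medium held LIF, so the effects of RA and of any change in LIF or the other supplements cannot be told apart. The other 6 libraries come from a derived line, which is 1 clone, in which Oct4, the transcription factor that Pou5f1 encodes, has the change C48S (a serine in place of a cysteine), with 3 libraries in each of the same states. They served for the shared estimate of spread and for the comparison of responses near the end. The titles and the protocol place every RA library at day 2, whereas the treatment field lists days 2, 3 and 4 for the 3 WT RA libraries. Nothing in the labels says that the 3 libraries of a group came from separate cultures, so the p-values measure only how far these libraries differ from each other, and that spread may be technical.

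RA is a derivative of vitamin A that enters the nucleus on small carrier proteins and binds the RA receptors encoded by Rara, Rarb and Rarg. These receptors sit on DNA in pairs with retinoid X receptors, recruit corepressors when empty and coactivators when they hold RA. In embryonic stem cells RA is known for switching off the pluripotency network and switching on Hox and other patterning genes, and the cells answer RA by making the enzymes that break it down.

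Values per library are CPM, counts scaled to a common library size, always in the order of replicates 1, 2 and 3. Log2 fold changes are RA against undifferentiated, and adjusted p-values come from edgeR's quasi-likelihood test with Benjamini-Hochberg adjustment over all genes tested. The value after ±, called SE here, is the size of the log2 fold change divided by the square root of that test's F statistic. It only approximates a standard error, and for large changes with few counts in a group it can be narrower than counting error. A gene is called higher or lower, and is said to have risen or fallen, at an adjusted p under 0.05. Where a bracket holds only a log2 fold change and its SE, the gene was called. The 6 libraries held between 8678088 and 13597098 counts. Ribosomal RNA, that of mitochondria included, took 0.577 to 0.612% of counts before RA and 0.812 to 0.939% after. Among tested genes the 2 mitochondrial ribosomal RNAs alone took 0.599% and 0.863% of the summed CPM. The mitochondrial genome, which holds these 2 genes too, took 1.92 to 2.04% and 2.12 to 2.35%, so the 2 shares overlap. Between 23894 and 24386 genes had a count before RA, and 26039 to 26624 after it. The part of these shares and gene numbers in the results was not tested. Log CPM of libraries of 1 group correlated at r = 0.989 to 0.991 across genes, which are not independent replicates.

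Over all genes tested, 14054 (78.3%) were called. Of all genes, 7345 (40.9%) were higher and 6709 (37.4%) lower, and 4781 (26.6%) were higher and 2706 (15.1%) lower by at least 2-fold. Scaling by library totals in place of TMM (edgeR's scaling factors) raised the median log2 fold change by 0.34 and moved the share of higher genes among the calls from 52.3% to 66.8%, so the direction of small changes depends on the scaling. A gene with no counts before RA enters the test only when RA, or the other line, supplies counts, and such genes add rises at low levels. Among the 11858 genes that averaged at least 5 CPM over the 6 WT libraries, 17.3% were higher and 15.9% lower by at least 2-fold, and the classes below are given against that background too.

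Pou5f1 itself stood at 587, 579 and 589 CPM before RA and at 24.1, 22 and 22.8 CPM after it (log2 fold change -4.67 ± 0.09, adjusted p = 2.68e-19). All 10 embryonic stem cell markers checked were lower, where 37.4% of all genes were, and their summed level went from 6097 to 6259 CPM before RA to 486.7 to 516.4 CPM after it. Nanog, a homeobox factor of the pluripotency network, had 1079, 1085 and 1044 CPM and then 16.4, 15.9 and 17.6 CPM (log2 fold change -6.01 ± 0.06, adjusted p = 7.03e-40). Sox2, the partner of Oct4 on DNA, had 430.3, 439 and 422 CPM and then 15.8, 13.1 and 13.8 CPM (log2 fold change -4.92 ± 0.07, adjusted p = 8.14e-36). For all 10 every RA library lay below every undifferentiated one, as for 38.9% of all genes, and Dppa5a, at 777 CPM before and 240.4 CPM after, kept the highest level of the 10 after RA. The label of the undifferentiated cells was thus met by its defining markers.

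Among the promoters of retinoid genes, those of Rarb and Cyp26a1 held the paired letters that RA receptors bind. The 250 bases before the start of each gene in RefSeq (GRCm38.p6) were searched on both strands for pairs of half-sites (AGGTCA, or the variant AGTTCA, or the form GGGTCA, or the form GGTTCA) in the same direction, spaced by 5 bases, the arrangement named DR5 that RA receptors bind. A gene was counted if any window recorded for it held a pair. Of 11440 protein-coding genes tested with such a window, 8 (0.0699%) held a DR5 pair, against 28 of all 27025 genes with a window (0.104%). They included 5 of 2848 genes higher by at least 2-fold (0.176%), 1 of 1661 genes lower by at least 2-fold (0.0602%) and 3 of the 182 genes higher by at least 5 log2 units (1.65%). Rarb and Cyp26a1 were the 2 of 26 retinoid genes with a window (7.69%) that held one. Both are shown because these genes made 2 of the largest rises of the list, with the pair in capitals, 5′ to 3′ on the gene's strand. The stretch of Rarb lies at chr14:16575477-16575569 (minus strand of the genome) with the pair 53 to 37 bases before the start, and that of Cyp26a1 at chr19:37697736-37697807 (plus strand) with the pair 32 to 16 bases before the start, read on the opposite strand.
Rarb: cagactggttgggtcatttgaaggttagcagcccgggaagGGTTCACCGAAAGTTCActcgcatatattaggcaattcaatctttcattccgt
Cyp26a1: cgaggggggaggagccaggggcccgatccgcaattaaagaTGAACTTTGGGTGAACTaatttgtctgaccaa
A match is a description of letters and not of binding, and pairs spaced by 1 or 2 bases were found for none of these 26 genes.

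Retinoid genes changed in both directions. The Cyp26 enzymes that clear RA, the carrier Crabp2 and the receptor Rarb rose, whereas Rarg and the RA-making enzyme Aldh1a2 fell. Of 32 tested members of the 40 listed, 18 were higher (15 by at least 2-fold), 8 lower (4 by at least 2-fold) and 6 were not called, beside 40.9% of all genes higher and 37.4% lower, with a median log2 fold change of 0.82 against 0.06 over all genes. Cyp26a1, the cytochrome that oxidises RA, had 0.21, 0 and 0.108 CPM before RA and 253, 234 and 250.1 CPM after it (adjusted p = 1.82e-36). It held 3 counts over the 3 undifferentiated libraries and 7730 over the 3 RA libraries, a fold of 2504 (95% counting interval 857 to 12150), and such intervals cover counting error only. Its relative Cyp26b1 went from 17.3, 15.4 and 17.1 CPM to 149, 148 and 146 CPM (log2 fold change 3.16 ± 0.07, adjusted p = 4.26e-30). Dhrs3, which reduces retinal to retinol and so lowers the supply of RA, had 6.4, 6.05 and 5.86 CPM and then 88.3, 98.2 and 98.2 CPM (log2 fold change 3.96 ± 0.10, adjusted p = 1.76e-28). The 3 breakdown and supply-limiting genes were high in every RA library and low in every undifferentiated one.

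Stra6, the membrane channel that takes up retinol, had 0.524, 0.42 and 0.759 CPM before RA and 56.2, 57.9 and 56.8 CPM after it (log2 fold change 6.65 ± 0.15, adjusted p = 4.28e-29). Crabp2, the carrier that brings RA to its receptors, had 2.31, 1.09 and 1.84 CPM and then 147, 141 and 132 CPM (log2 fold change 6.36 ± 0.12, adjusted p = 4.94e-32). Fabp5, a lipid carrier that can also bind RA, moved the other way, from 17.3 to 4.84 CPM (-1.84 ± 0.14). Crabp1, a carrier linked to RA turnover, went from 5.87 to 10 CPM (0.76 ± 0.15). Stra8, a gene named for its stimulation by RA and needed for meiotic entry in germ cells, had 9.96, 10.3 and 8.68 CPM and then 408, 422 and 393 CPM (log2 fold change 5.39 ± 0.07, adjusted p = 1.58e-36). Aldh1a2, the main dehydrogenase that makes RA in embryos, fell from 12.4, 9.99 and 10.8 CPM to 1.97, 3.43 and 4.39 CPM (log2 fold change -1.74 ± 0.20, adjusted p = 1.54e-09), and Aldh1a1, of the same family, was not called (1.99 and 2.23 CPM, adjusted p = 0.624).

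The receptors of RA changed in opposite directions. Rarb had 0.21, 0.504 and 0.868 CPM before RA and 30.1, 26.9 and 27.1 CPM after it (log2 fold change 5.71 ± 0.21, adjusted p = 6.11e-23). Rara went from 64.5, 59.1 and 62.8 CPM to 135, 129 and 122 CPM (log2 fold change 1.05 ± 0.06, adjusted p = 7.44e-18). Rarg went from 172, 176 and 173 CPM to 53.5, 53 and 52 CPM (log2 fold change -1.72 ± 0.05, adjusted p = 2.68e-25). After RA, Rara had the highest count level of the 3 where Rarg had it before, though CPM are not corrected for gene length. Of the retinoid X receptors, Rxra fell from 43.7 to 35.6 CPM (-0.30 ± 0.08). Rxrb went from 56.4 to 46.2 CPM (-0.28 ± 0.08), but under library totals the log2 fold changes were 0.05 and 0.06 and neither was called. Rxrg had 0 counts before RA and 89 after it, at least 28.8-fold higher with the undifferentiated group set to 3 counts in all.

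**Figure D1:**
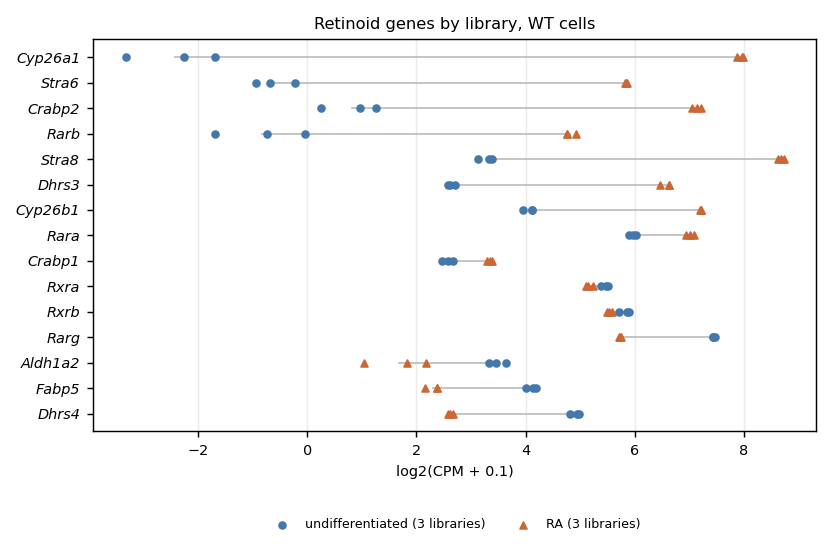
Levels of 15 retinoid genes in each of the 6 WT libraries, on a log2(CPM + 0.1) axis. Here 0.1 CPM is added before the logarithm, circles are the 3 undifferentiated and triangles the 3 RA libraries, and the line joins the group means. Cyp26a1, Stra6, Crabp2 and Rarb sit furthest to the right of their undifferentiated level, and Rarg, Aldh1a2, Fabp5 and Dhrs4 sit to its left.

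Among transcription factors, many pluripotency factors fell and most Hox genes rose. Of 979 tested factors, 477 were higher and 340 lower, and 325 (33.2%) were higher and 151 (15.4%) lower by at least 2-fold, beside 26.6% and 15.1% of all genes. These factors include 37 nuclear receptors, which are also counted among the receptors below. The median log2 fold change was 0.25 against 0.06 over all genes. Among the 716 factors with a mean of at least 5 CPM, 22.2% were higher and 18.7% lower by at least 2-fold, against 17.3% and 15.9% of all such genes. The largest family, the 374 tested genes named as ZFP zinc fingers, many of them KRAB repressors, had 55 higher and 58 lower by at least 2-fold and a median of -0.07 (0.27 under library totals).

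The falls were led by factors of the naive pluripotent state. Prdm14, a chromatin factor that keeps stem cells naive, had 108, 116 and 114 CPM before RA and 0.207, 0.686 and 0.293 CPM after it (log2 fold change -8.06 ± 0.16, adjusted p = 5.09e-31). Nr0b1, an orphan nuclear receptor of the pluripotency network, went from 157 to 1.33 CPM (log2 fold change -6.87 ± 0.13, adjusted p = 1.3e-30). Esrrb, an orphan receptor downstream of GSK3 inhibition, went from 699.9, 673 and 681 CPM to 13.6, 11.5 and 12.2 CPM (log2 fold change -5.79 ± 0.07, adjusted p = 1.09e-37). Foxd3, a forkhead factor of the early embryo, went from 65.6 to 0.81 CPM (-6.35 ± 0.19). Spic, an ETS factor, held 761 counts before RA and 2 after it, a fold of 392 (95% counting interval 108 to 3238) downward. Tfcp2l1, a naive factor, had the largest absolute level of these, 1636, 1670 and 1643 CPM, and 111, 112 and 106 CPM after RA (-3.91 ± 0.06). Etv5, an ETS factor known as an ERK target, went from 784 to 33.4 CPM (-4.55 ± 0.06).

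Members of several families fell with them. Counts of called genes here and in the Hox paragraph that follows stand beside 37.4% of all genes lower and 40.9% higher. Of 24 tested KLF and SP factors 15 were lower and 5 higher, with a median of -0.67. Klf4, a reprogramming factor, went from 217, 218 and 200.5 CPM to 19, 16.7 and 17 CPM (-3.60 ± 0.07). Klf5 went from 389 to 70.3 CPM (-2.47 ± 0.06). Klf8 went from 101 to 16.9 CPM (-2.59 ± 0.08). Of the 4 Spalt factors, Sall1, Sall3 and Sall4 fell and Sall2 rose. Sall4, which binds with Oct4, went from 1173 to 253 CPM (-2.21 ± 0.05). Sall2 went from 11.1 to 80 CPM (2.86 ± 0.09). In the MYC network 6 of 9 members were lower. Mycn, its main member in stem cells, went from 159, 152 and 149 CPM to 10.6, 11.5 and 8.79 CPM (-3.89 ± 0.09), Myc was not called (15.6 and 13.3 CPM, adjusted p = 0.0819, and 0.0414 without RA replicate 3), and Mxd4, which competes with MYC for its partner Max, rose from 8.21 to 60.4 CPM (2.87 ± 0.10). Trp53, the gene of p53, went from 868, 906 and 865 CPM to 267, 269 and 276 CPM (-1.70 ± 0.04). Lef1 and Tcf7l1, which receive the Wnt signal in the nucleus, fell by 1.91 and 1.52 on the log2 scale, whereas Tcf7 rose from 111 to 156 CPM.

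Most Hox genes, which set position along the body axis, rose. Of 39 in the list all 39 were tested, 36 were higher, all of them by at least 2-fold, 2 were lower and 1 was not called, with a median of 3.26 (3.22 with the 2 genes that had no counts before RA set at their bound). All 12 tested genes of paralogue groups 1 to 4 were higher, as were all 11 of groups 5 to 8 and 13 of the 16 of groups 9 to 13. Their median levels after RA were 10.3, 9.57 and 3.44 CPM. Hoxb1 had 0, 0.168 and 0 CPM before RA and 129.9, 118 and 136 CPM after it, 2 against 4027 counts, a fold of 1957 (95% counting interval 541 to 16170). Hoxb2 went from 0.373 to 46.9 CPM (6.98 ± 0.22). Hoxb3 went from 0.339 to 43.4 CPM (6.88 ± 0.20). Hoxb8 went from 0.464 to 34.8 CPM (6.21 ± 0.22). The 2 that fell, Hoxc12 (2.74 to 0.467 CPM, -2.51 ± 0.38) and Hoxc13 (9.7 to 7.18 CPM, -0.42 ± 0.17), and Hoxc11, which was not called (adjusted p = 0.0521), all lie at the end of the C cluster and are named, after their values were seen, because they were the exceptions. The groups of Hoxc13 overlapped, and it was not called under library totals (log2 fold change -0.07), by DESeq2 (adjusted p = 0.0555) or with any of 4 single libraries left out (undifferentiated replicates 1 and 2, adjusted p = 0.105 and 0.0632, and RA replicates 1 and 3, adjusted p = 0.247 and 0.0858). Hoxc11 was called higher under library totals (1.76), with DESeq2's size factors (1.45) and without RA replicate 2 (1.77).

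The TALE partners that bind DNA with Hox proteins rose with them, 14 of 17 being higher and 3 lower. The counts here and in the next paragraph stand beside 40.9% of all genes higher and 37.4% lower. Meis1 had 1.05, 1.59 and 3.04 CPM before RA and 175, 179 and 176 CPM after it (log2 fold change 6.56 ± 0.12, adjusted p = 3.18e-32). Meis2 went from 9.27 to 111 CPM (3.59 ± 0.09). Among other homeobox groups, 24 of 34 other Antennapedia-class genes were higher and 6 lower, 18 of 24 paired-class genes were higher and 3 lower, and 7 of 8 LIM genes were higher and 0 lower. Of 10 Nkx genes 6 were higher and 1 lower, and of 5 sine oculis homeobox genes 3 were higher and 2 lower. The POU genes, which include Pou5f1, had 4 of 11 higher and 5 lower, near the shares of all genes, with a median of -0.35. Lhx1, a LIM factor of axial and kidney development, held 2 counts and then 905, a fold of 439.8 (95% counting interval 121 to 3637). Dlx3 went from 1.6 to 83 CPM (5.69 ± 0.13). Msx1 went from 0.772 to 34.5 CPM (5.50 ± 0.18).

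Lineage factors outside the homeobox class rose as well, mostly from low levels. All 5 tested GATA factors were higher: Gata3, a trophoblast and kidney factor, went from 3.69 to 25 CPM (2.74 ± 0.14). Gata6, of primitive endoderm, went from 0.935 to 10.2 CPM (3.46 ± 0.26). Gata4 went from 2.6 to 13.1 CPM (2.31 ± 0.18). Of 18 SOX factors 14 were higher and 2 lower, with Sox4 at 25 and 194 CPM (2.96 ± 0.06) and Sox10, a neural crest factor, at 0.271 and 15.3 CPM (5.81 ± 0.28). Of 35 forkhead factors 27 were higher and 6 lower. Zfp703, a zinc finger corepressor, rose from 11.8, 11.5 and 11.9 CPM to 252, 239.6 and 252 CPM (4.40 ± 0.08). Egr1, an immediate early gene downstream of ERK, rose from 1.46 to 30.7 CPM (4.43 ± 0.17). The ZIC genes divided: Zic2 and Zic5 fell by 3.64 and 4.40 on the log2 scale, and Zic1, a neural and somite factor, went from 2 to 148 counts, a fold of 71.9 (95% counting interval 19.6 to 599). The hypoxia factors divided too, Epas1 falling from 230.5 to 26.3 CPM (-3.13 ± 0.06) and Hif3a rising from 3.5 to 31.6 CPM (3.19 ± 0.13).

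**Figure D2:**
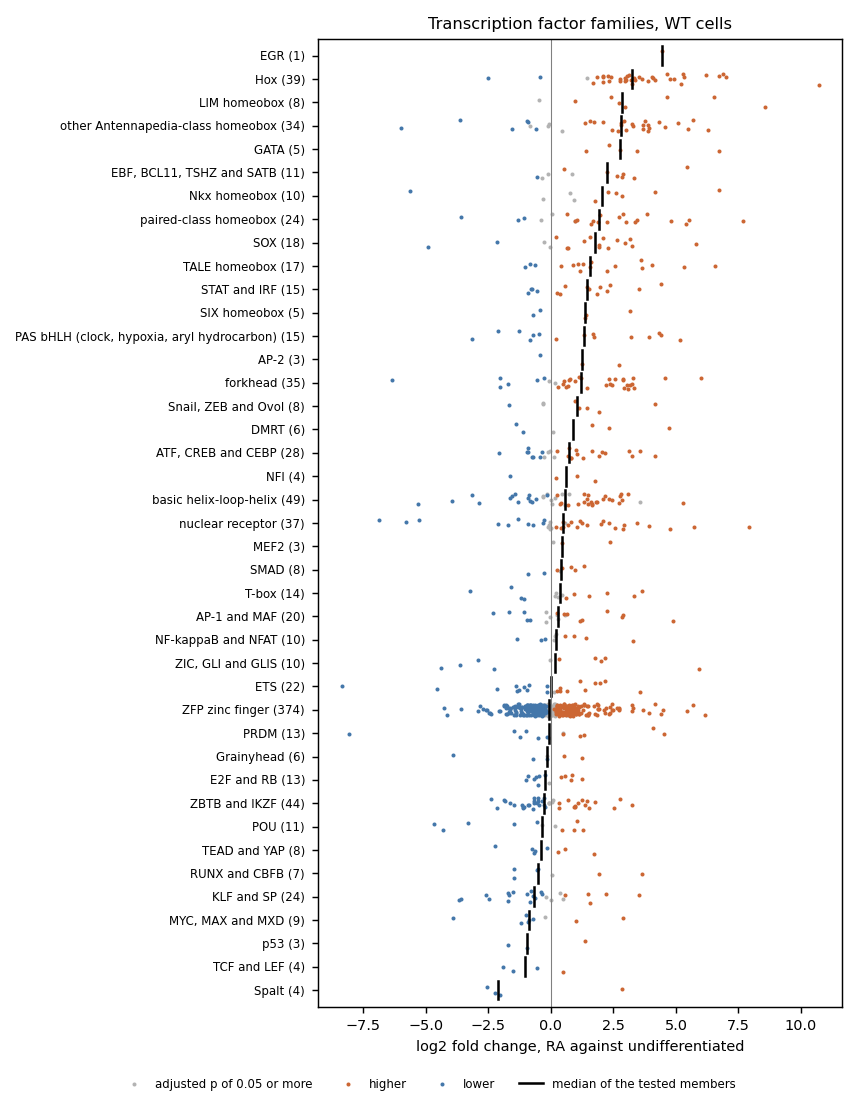
Log2 fold changes of the tested members of each transcription factor family, 1 point per gene, coloured by the call, with a bar at the family median and the number of genes in brackets. Families are ordered by median, with the Hox, LIM, GATA and other Antennapedia-class families on the right of 0 near the top and the KLF, MYC and Spalt families on the left near the bottom.

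Among receptors rises outnumbered falls. Of 410 tested receptor genes, 264 were higher and 78 lower, and 205 (50.0%) were higher and 50 (12.2%) lower by at least 2-fold, beside 26.6% and 15.1% of all genes. The median log2 fold change was 1.05. Among the 229 receptors with a mean of at least 5 CPM, 39.3% were higher and 15.7% lower by at least 2-fold, against 17.3% and 15.9% of all such genes. These shares describe the list and were not tested as a set. Family counts in the receptor paragraphs below stand beside 40.9% of all genes higher and 37.4% lower.

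The large rises were spread over signalling types. Tacr3, the receptor of the peptide neurokinin B, held 2 counts before RA and 302 after it, a fold of 147 (95% counting interval 40.3 to 1217). Chrm3, a muscarinic acetylcholine receptor, went from 0.21, 0.168 and 0.325 CPM to 13.1, 11.8 and 11.4 CPM (log2 fold change 5.65 ± 0.32, adjusted p = 8.98e-18). Chrna4, a nicotinic channel subunit, went from 0.523 to 19.2 CPM (5.17 ± 0.24). Of 41 tested ligand-gated channel genes, 33 were higher and 3 lower, with a median of 2.36, and of the 12 with a mean of at least 5 CPM, 9 were higher. Dcc, the netrin receptor that guides axons, went from 0.43 to 24.2 CPM (5.79 ± 0.23), and 18 of 20 guidance receptors were higher and 1 lower. Plxna2, a semaphorin co-receptor, went from 14.9 to 111 CPM (2.89 ± 0.09). Gprc5c, an orphan receptor of a family induced by RA, went from 16.4, 15.1 and 15 CPM to 187, 193 and 189.5 CPM (log2 fold change 3.62 ± 0.07, adjusted p = 3.22e-31).

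Growth factor receptors mostly rose. Of the FGF receptor list 5 of 6 were higher: Fgfr2 had 5.14, 6.3 and 7.48 CPM before RA and 59.2, 57.5 and 60.8 CPM after it (log2 fold change 3.23 ± 0.13, adjusted p = 7.14e-22), Fgfr1 went from 111 to 329 CPM (1.57 ± 0.06), and the co-receptor Klb was not called (adjusted p = 0.472). The VEGF receptors Flt1 and Flt4 went from 0.866 to 21 CPM (4.61 ± 0.20) and from 6.18 to 89.2 CPM (3.83 ± 0.11), and Kdr, the third of them, was not called (2.81 and 3.41 CPM, adjusted p = 0.391) unless library totals were used (0.0443). Pdgfrb, a PDGF receptor of mesenchyme, went from 12.2 to 85.1 CPM (2.80 ± 0.08). Tie1, an orphan receptor of endothelium, went from 4.43 to 70.1 CPM (3.98 ± 0.12). Kit, the receptor of stem cell factor, fell from 224, 234 and 237 CPM to 77.3, 76.6 and 69.4 CPM (log2 fold change -1.64 ± 0.05, adjusted p = 1.43e-24). Egfr went from 10.4 to 58.4 CPM (2.48 ± 0.10). Met, the receptor of hepatocyte growth factor, went from 3.53 to 28.5 CPM (3.01 ± 0.14), whereas Erbb3 fell from 124 to 64.5 CPM (-0.94 ± 0.05).

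Within several pathways some receptors fell and others rose. In the Notch family, Notch4 fell from 71.3, 66.4 and 68 CPM to 1.86, 2.06 and 2.64 CPM (log2 fold change -4.96 ± 0.15, adjusted p = 2.02e-24). Notch1 went from 192 to 74 CPM (-1.38 ± 0.06), while Notch3 rose from 66.2, 60.5 and 62.6 CPM to 239, 241 and 249.5 CPM (log2 fold change 1.95 ± 0.06, adjusted p = 9.5e-25). Notch2 went from 109 to 194 CPM (0.83 ± 0.05). Among Wnt receptors Fzd5 fell from 181 to 33.9 CPM (-2.42 ± 0.05). Fzd2 went from 12.1 to 100.1 CPM (3.04 ± 0.09), and 13 of 18 Frizzled and co-receptor genes were higher and 4 lower. The Hedgehog receptor Ptch1, which is also a target of that pathway, fell by 1.54 on the log2 scale. The signal transducer Smo, the co-receptors Gas1, Cdon and Boc and the decoy Hhip all rose, Gas1 from 6.33 to 54.3 CPM (3.10 ± 0.12). Among Eph receptors, of which 9 of 14 were higher and 3 lower, Epha4 fell from 170 to 13.4 CPM (-3.65 ± 0.08). Epha2 went from 261 to 43.2 CPM (-2.59 ± 0.05). Epha1 went from 0, 0.252 and 0.217 CPM to 14.2, 11.6 and 11.4 CPM (6.15 ± 0.31).

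Other receptors fell, several of them known from pluripotent cells. Htr5a, a serotonin receptor, held 627 counts before RA and 2 after it, a fold of 323 (95% counting interval 88.9 to 2669) downward. Nr5a2, an orphan nuclear receptor that can activate Pou5f1, went from 139, 144 and 144 CPM to 2.38, 4.72 and 3.61 CPM (log2 fold change -5.29 ± 0.12, adjusted p = 1.16e-24). Tnfrsf8, known as CD30, a TNF receptor of pluripotent cells, went from 27.4 to 0.934 CPM (-4.88 ± 0.18). Tdgf1, the Nodal co-receptor Cripto, went from 638 to 37 CPM (-4.11 ± 0.06). Lifr, the receptor of LIF, went from 127, 126 and 129 CPM to 46.5, 51.4 and 45.8 CPM (-1.40 ± 0.06). Tfrc, the transferrin receptor that brings in iron, had 1145, 1129 and 1078 CPM and then 266, 286 and 280.5 CPM (log2 fold change -2.01 ± 0.05, adjusted p = 1.48e-28), while Trf, its ligand transferrin, rose from 2.49 to 35.1 CPM (3.78 ± 0.15). The iron exporter Slc40a1 went from 0.795 to 16.5 CPM (4.33 ± 0.20). Endocytic receptors of absorptive epithelia rose: Lrp2 went from 69.3 to 298 CPM (2.11 ± 0.06). Cubn went from 0.836 to 17.6 CPM (4.36 ± 0.22). Itga3, a laminin-binding integrin, went from 30, 31.6 and 28 CPM to 397, 381 and 377 CPM (log2 fold change 3.68 ± 0.06, adjusted p = 1.3e-32).

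**Figure D3:**
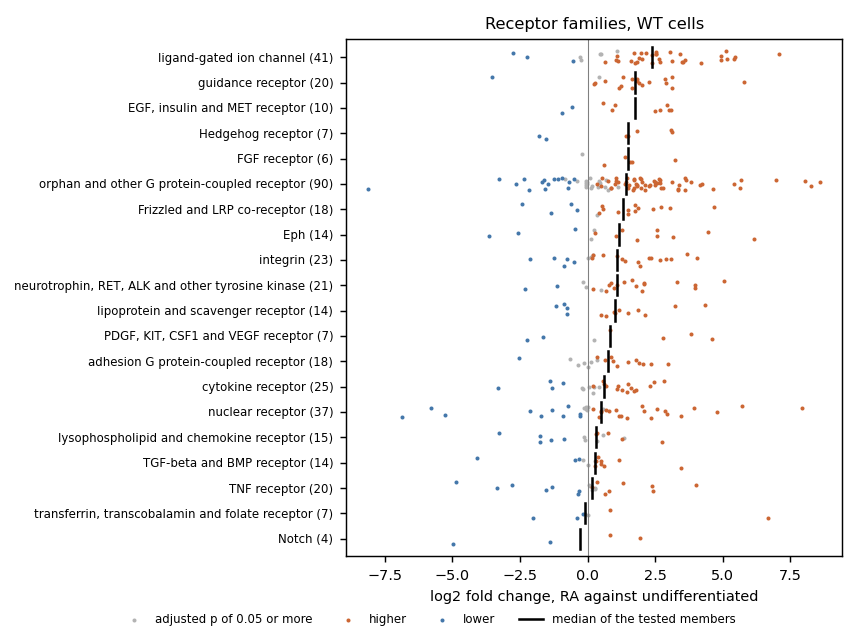
Log2 fold changes of the tested members of each receptor family, 1 point per gene, coloured by the call, with a bar at the family median. Ligand-gated ion channels have a median of 2.36 and guidance receptors 1.74, and the Notch and the transferrin, transcobalamin and folate receptor lists have medians of -0.27 and -0.09, which are 0.07 and 0.26 under library totals.

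Metabolic genes moved in both directions in nearly equal numbers, with many falls in nucleotide and one-carbon synthesis. Of 830 tested genes, 325 were higher and 360 lower, and 201 (24.2%) were higher and 148 (17.8%) lower by at least 2-fold, beside 26.6% and 15.1% of all genes. The median log2 fold change was -0.06, which the shift under library totals takes above 0. Among the 677 with a mean of at least 5 CPM, 16.7% were higher and 19.8% lower by at least 2-fold, near the 17.3% and 15.9% of all such genes.

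Tdh, the threonine dehydrogenase on which mouse stem cells rely for glycine and acetyl-CoA, had 675, 668 and 643 CPM before RA and 1.45, 0.858 and 0.977 CPM after it (log2 fold change -9.25 ± 0.09, adjusted p = 7.03e-40). The groups did not overlap, and no other protein-coding gene had a larger fitted fall. Over all genes 37.4% were lower (15.1% by at least 2-fold) and 40.9% higher. Of 33 tested genes of serine, glycine, threonine and one-carbon metabolism, 26 were lower (16 by at least 2-fold) and 4 higher, with a median of -0.92. Shmt1, which passes a carbon from serine to folate, went from 244 to 42.8 CPM (-2.52 ± 0.06). Mat2a, which makes the methyl donor S-adenosylmethionine, went from 709, 719 and 709.5 CPM to 180, 165 and 168 CPM (-2.06 ± 0.05). Of 32 genes of purine and pyrimidine synthesis, 26 were lower (18 by at least 2-fold) and 2 higher, with a median of -1.07. Ppat, which commits to purine synthesis, went from 240.5 to 55.2 CPM (-2.12 ± 0.05). Prps1, which supplies its sugar phosphate, went from 185 to 31.2 CPM (-2.56 ± 0.06). The uridine kinase Uck2 went from 471 to 137 CPM (-1.78 ± 0.05).

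Amino acid and polyamine genes changed in both directions. The counts here and for the carbon, lipid and redox genes below stand beside 37.4% of all genes lower and 40.9% higher. Of 27 genes of glutamine, proline, aspartate and polyamine metabolism 16 were lower and 7 higher, of 18 genes of branched-chain amino acid and tryptophan breakdown 9 were lower and 7 higher, and of 34 amino acid transporters 15 were lower and 15 higher. Asns, asparagine synthetase, went from 660.4, 674 and 649 CPM to 134, 135 and 133 CPM (log2 fold change -2.30 ± 0.05, adjusted p = 4.99e-29). Srm, spermidine synthase, went from 269, 272 and 263 CPM to 34.1, 35.9 and 34.1 CPM (log2 fold change -2.95 ± 0.06, adjusted p = 3.61e-31). Sms, spermine synthase, went from 115 to 28.9 CPM (-2.00 ± 0.07). Bcat1, which removes nitrogen from branched-chain amino acids, went from 680.1 to 66.9 CPM (-3.35 ± 0.05). The cationic amino acid carriers Slc7a3 and Slc7a1 fell by 3.63 and 1.99 on the log2 scale, whereas Slc38a4, an imprinted neutral amino acid carrier, rose from 227, 220.5 and 215 CPM to 989, 1002 and 968 CPM (log2 fold change 2.16 ± 0.05, adjusted p = 1.63e-27). Arg1, the arginase that splits arginine into ornithine and urea, held 1 count before RA and 657 after it, a fold of 639 (95% counting interval 114 to 25260). Ckb, the creatine kinase that buffers ATP, went from 792, 770.4 and 752 CPM to 69.1, 67.3 and 62.5 CPM (-3.54 ± 0.06).

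Genes of carbon metabolism moved in both directions. Of 32 tested glycolysis entries (1 gene is listed under 2 identifiers) 17 were higher and 11 lower. Hk2 and Pfkp, which start and commit the pathway, fell from 387 to 122 CPM (-1.67 ± 0.05) and from 429 to 79.7 CPM (-2.43 ± 0.06), while the glucose carrier Slc2a1 rose from 349.7, 333 and 334 CPM to 900.4, 873 and 898 CPM (log2 fold change 1.39 ± 0.05, adjusted p = 3.61e-24). Of 27 genes of the tricarboxylic acid cycle 18 were lower (6 by at least 2-fold) and 4 higher, with a median of -0.43. Library totals raised log2 fold changes over all genes by a median of 0.34, a shift close to that size. The pyruvate dehydrogenase subunit Pdhb went from 172 to 44.6 CPM (-1.95 ± 0.06). Of 83 nuclear genes of oxidative phosphorylation 54 were lower and 9 higher, but 4 and 3 by at least 2-fold, and their median of -0.36 was -0.02 under library totals. Of the 83 cytosolic ribosomal protein genes 79 were lower, 2 of them by at least 2-fold, with a median of -0.58 that was -0.24 under library totals.

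Lipid and redox genes changed in both directions. Of 20 genes of fatty acid synthesis and desaturation 14 were higher and 5 lower, with a median of 0.97, and of 27 genes of fatty acid oxidation and ketone bodies 15 were higher and 9 lower, with a median of 0.28. Cpt1a, the gate for fatty acids into mitochondria, had 204, 202 and 211 CPM before RA and 13.7, 10.6 and 10.6 CPM after it (log2 fold change -4.15 ± 0.08, adjusted p = 1.07e-31). Acly, which makes cytosolic acetyl-CoA, went from 1075 to 309 CPM (-1.80 ± 0.05). The elongase Elovl6 went from 498 to 104.1 CPM (-2.26 ± 0.05). The desaturases Scd1 and Scd2 rose, Scd2 from 667, 666 and 642 CPM to 2324, 2221 and 2220 CPM (log2 fold change 1.78 ± 0.05, adjusted p = 9.88e-28). Scd1 went from 87.6 to 351 CPM (2.00 ± 0.05), and their regulator Srebf1 rose from 93.9 to 265 CPM (1.50 ± 0.05). Plin2, a coat protein of lipid droplets, went from 46.2 to 218 CPM (2.24 ± 0.06). The sterol exporter Abcg1 went from 4.82 to 57.1 CPM (3.56 ± 0.14). Of 47 glutathione and thioredoxin genes 28 were lower and 16 higher. Gsr, glutathione reductase, went from 216, 225 and 216 CPM to 29.5, 30 and 29.2 CPM (-2.89 ± 0.06). The mitochondrial Sod2 went from 229 to 31.3 CPM (-2.87 ± 0.06). Gpx2 went from 25.5 to 1.18 CPM (-4.43 ± 0.18), whereas the secreted peroxidase Gpx3 rose from 38.3, 40.2 and 33.4 CPM to 248, 267 and 252 CPM (2.77 ± 0.06).

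**Figure D4:**
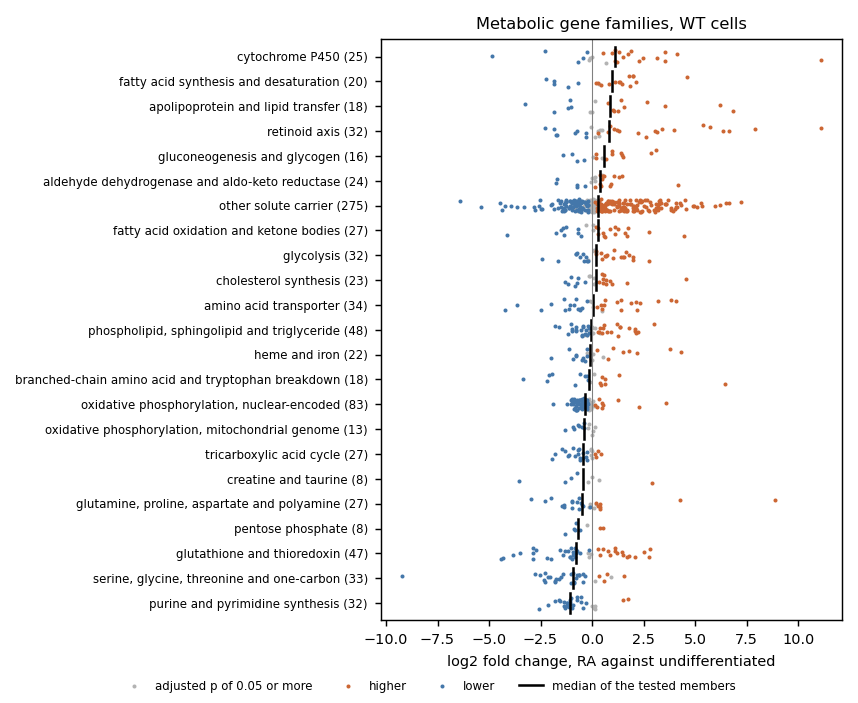
Log2 fold changes of the tested members of each metabolic list, 1 point per gene, coloured by the call, with a bar at the list's median. The purine and pyrimidine list lies lowest with a median of -1.07, and Tdh and Cyp26a1 are the points furthest to the left and to the right.

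Noncoding RNAs included some of the largest changes in both directions, with imprinted and Hox cluster RNAs high after RA and RNAs known from pluripotent cells high before it. Of 2169 tested noncoding genes, 852 were higher and 478 lower, and 725 (33.4%) were higher and 338 (15.6%) lower by at least 2-fold, beside 26.6% and 15.1% of all genes. Only 290 of them had a mean of at least 5 CPM, and of those 14.1% were higher and 24.5% lower by at least 2-fold, so the rises outnumbered the falls in genes of low level and not in those above it. By annotated type, 85 small nucleolar RNAs held 4 rises and 57 falls (median -1.20). The 351 antisense genes held 171 rises and 67 falls (median 0.82), and the 492 long intergenic RNAs 231 rises and 139 falls (median 0.54). Counts of called genes here and in the noncoding RNA paragraphs below stand beside 40.9% of all genes higher and 37.4% lower. The median over all genes was 0.06. Long intergenic RNAs took 0.589% of the summed CPM of tested genes before RA and 1.6% after it, and most of that rise came from H19, described below. Counting used strand, so antisense genes are read apart from their partners.

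H19, an imprinted long RNA of the growth-controlling Igf2 domain, had 9.65, 11.7 and 14.9 CPM before RA and 6679, 7091 and 6413 CPM after it (log2 fold change 9.13 ± 0.13, adjusted p = 2.11e-15). After Peg10 it made the largest gain in CPM of any gene. Meg3, an imprinted long RNA of the Dlk1-Dio3 domain, went from 79.9, 65.5 and 81.3 CPM to 564, 509.8 and 596 CPM (log2 fold change 2.89 ± 0.07, adjusted p = 2.99e-23), and Rian and Mirg, which follow it on chromosome 12, went from 109 to 807 CPM (2.89 ± 0.05) and from 11.7 to 98.1 CPM (3.07 ± 0.15). Airn, the antisense RNA that silences Igf2r, went from 2.9 to 31.5 CPM (3.40 ± 0.17), and Igf2r itself from 239.8 to 162 CPM (-0.57 ± 0.05). Kcnq1ot1, the silencing RNA of another imprinted domain, was not called (362, 340.3 and 399 CPM and 331, 338 and 376 CPM, adjusted p = 0.624). Of 9 imprinted noncoding RNAs tested 7 were higher and 1, Nespas, was lower (-0.63 ± 0.10).

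All 9 tested noncoding genes of the Hox clusters were higher, beside 40.9% of all genes. Of 20 listed, 15 were matched and 9 had enough counts. These 9 together held 1.93 to 4.66 CPM before RA and 104.5 to 108.9 CPM after it. Genes this low before RA pass the filter mainly through libraries where they are high, so rises were favoured in advance. Hoxaas2 held 0 counts before RA and 8.5, 8.58 and 10.6 CPM after it, at least 94-fold higher by the same floor of 3 counts. Hoxb5os held 1 count and then 660, a fold of 642 (95% counting interval 115 to 25380), and Hoxb3os 1 and then 505, a fold of 491 (95% counting interval 87.7 to 19420). Hotairm1, an RA-responsive RNA of the HoxA cluster, went from 0.315, 0.168 and 0.651 CPM to 22.7, 22.6 and 22.5 CPM (log2 fold change 5.93 ± 0.23, adjusted p = 2.18e-22). Every RA library exceeded every undifferentiated library for these 4 RNAs and for 37 of the 39 Hox genes, beside 42.0% of all genes.

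RNAs known from undifferentiated cells fell in most cases. Of 25 tested Platr and stem cell long noncoding RNAs, a list named for pluripotency-associated transcripts, 16 were lower (14 by at least 2-fold) and 4 higher, with a median of -1.56. Platr10 went from 57.5, 64.2 and 59.9 CPM to 0.518, 0.6 and 0.488 CPM (log2 fold change -6.78 ± 0.16, adjusted p = 6.3e-29), and Platr7 held 286 counts and then 1, a fold of 294 (95% counting interval 52.4 to 11660) downward. Lncenc1, the most abundant of the list, went from 426, 426 and 435 CPM to 349.7, 355 and 348 CPM (log2 fold change -0.29 ± 0.05, adjusted p = 6.72e-06, but 0.05 and not called under library totals). Gm14820, an unnamed X-linked gene, held 893 counts and then 1, a fold of 919 (95% counting interval 164 to 36330) downward, and 6330410L21Rik, on chromosome 3, 225 and then 0, at least 77.2-fold lower by that floor. Of 17 host genes of small nucleolar RNAs 13 were lower and 2 higher: Snhg5 went from 106, 94.4 and 96.8 CPM to 16.7, 14.8 and 17.4 CPM (log2 fold change -2.61 ± 0.10, adjusted p = 1.14e-18). Gas5 went from 242, 233 and 230.5 CPM to 94.1, 87.2 and 84.1 CPM (-1.41 ± 0.06). Dancr went from 26.3 to 3.71 CPM (-2.85 ± 0.17). In the X inactivation centre Tsix, the antisense RNA that holds Xist in check, fell from 14.3, 13.8 and 11.5 CPM to 4.97, 4.8 and 4.2 CPM (log2 fold change -1.50 ± 0.15, adjusted p = 2.09e-11), Jpx and Ftx rose, Ftx from 1.38 to 10.6 CPM (2.97 ± 0.21), and Xist itself went from 23.1 to 17.4 CPM (-0.41 ± 0.12), though under library totals it was not called (-0.07). The nuclear RNAs Malat1 and Neat1 went from 3163 to 3681 CPM (0.22 ± 0.07, adjusted p = 0.0811 when the WT libraries were fitted alone) and from 91 to 165 CPM (0.86 ± 0.18).

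MicroRNA genes were read at their hairpin loci, so the values show primary transcripts and not mature microRNAs. Of 37 tested microRNA genes 14 were higher and 15 lower, near the 40.9% and 37.4% of all genes. The falls included the Mir290 to Mir295 cluster of chromosome 7, the main microRNAs of mouse stem cells, and the rises included Mir10a, which lies in the HoxB cluster, and loci of the Dlk1-Dio3 domain. Their mature sequences from RefSeq (GRCm38.p6) are shown with the seed, bases 2 to 8, in capitals, because 3 members of the cluster that fell share 1 seed and the others do not have it.
mmu-miR-291a-3p: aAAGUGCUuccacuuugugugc
mmu-miR-294-3p: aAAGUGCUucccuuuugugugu
mmu-miR-295-3p: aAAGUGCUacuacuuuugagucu
mmu-miR-10a-5p: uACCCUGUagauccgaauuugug
mmu-miR-127-3p: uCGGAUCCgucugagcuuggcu
mmu-miR-541-5p: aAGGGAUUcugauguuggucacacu
Mir295 had 9.02, 6.55 and 7.59 CPM before RA and 0.311, 0.172 and 0.195 CPM after it (log2 fold change -5.04 ± 0.36, adjusted p = 6.05e-15), Mir291a went from 6.46 to 0.462 CPM (-3.81 ± 0.40). Mir294 went from 5.9 to 0.421 CPM (-3.81 ± 0.36). Mir10a held 1 count and then 37, a fold of 36 (95% counting interval 6.07 to 1458). Mir127 held 3 counts and then 85, a fold of 27.5 (95% counting interval 9.11 to 136), and Mir541 2 and then 49, a fold of 23.8 (95% counting interval 6.25 to 202). Mir291a, Mir294, Mir127 and Mir541 were chosen after their values were seen.

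**Figure D5:**
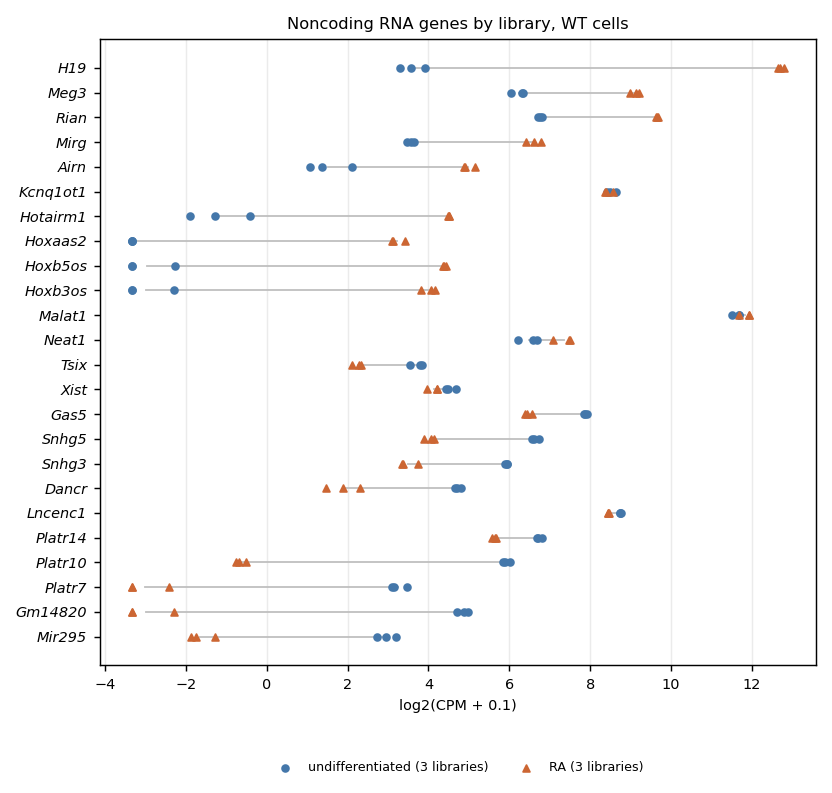
Levels of 24 noncoding RNA genes in each of the 6 WT libraries, on a log2(CPM + 0.1) axis, with circles for the 3 undifferentiated and triangles for the 3 RA libraries and a line between the group means. H19 and the Hox cluster RNAs move right after RA, Platr10, Platr7, Gm14820 and Mir295 move left, and the groups of Kcnq1ot1 overlap.

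By absolute level, the RA libraries gained most from Peg10, an imprinted gene derived from a retroelement, which had 71.9, 78.9 and 82.1 CPM before RA and 8582, 8689 and 8445 CPM after it (log2 fold change 6.79 ± 0.06, adjusted p = 6.6e-41). The imprinted genes Mest and Peg3 were also among the largest gains, with 94.2 and 1183 CPM (3.65 ± 0.05) and 597 and 2447 CPM (2.04 ± 0.05), as did the heparin-binding growth factor Mdk, which RA is known to induce, with 48.8, 46.9 and 53.1 CPM and 1378, 1398 and 1298 CPM (log2 fold change 4.78 ± 0.07, adjusted p = 1.04e-33). Col18a1, a basement membrane collagen, went from 226 to 1369 CPM (2.60 ± 0.05). The largest losses in CPM included housekeeping genes of folding and translation, whose many processed pseudogenes could share reads with them: the chaperone gene Hspa8 went from 5576, 5702 and 5494 CPM to 2230, 2242 and 2109 CPM (log2 fold change -1.35 ± 0.05, adjusted p = 6.58e-24). Npm1, of nucleoli, went from 3523 to 1337 CPM (-1.40 ± 0.05). Eif4a1, of translation initiation, went from 2468 to 776 CPM (-1.67 ± 0.05). Trim28, the corepressor of KRAB zinc fingers, went from 2785 to 633 CPM (-2.14 ± 0.06).

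Markers of other cell types changed in both directions, beside 40.9% of all genes higher and 37.4% lower. Not every listed marker had enough counts. Tested were 10 of 13 endoderm, 11 of 13 neural, 8 of 11 trophoblast, 8 of 10 mesoderm and 4 of 8 endothelium or blood markers. Markers with few counts before RA, such as Foxa2, enter the test only through RA or the other line, which adds rises. All 10 tested markers of primitive or visceral endoderm were higher, with Foxa2 going from 1 to 89 counts, a fold of 86.5 (95% counting interval 15.1 to 3455), and Dab2 from 5.61 to 23.2 CPM (2.04 ± 0.13). Of 11 neural markers 9 were higher and 2 lower: Pax6, an eye and forebrain factor, went from 0.839, 0.42 and 0.759 CPM to 9.33, 9.69 and 9.86 CPM (log2 fold change 3.86 ± 0.28, adjusted p = 7.78e-15). Nes, an intermediate filament of neural progenitors, went from 37.6 to 81.8 CPM (1.12 ± 0.08), whereas Olig2 fell from 27.9 to 0.7 CPM (-5.29 ± 0.23). Of 8 trophoblast markers 4 were higher and 3 lower, Cdx2 going from 6.61, 5.29 and 5.21 CPM to 1.86, 3.26 and 3.71 CPM (-0.93 ± 0.21). Of 4 tested endothelium or blood markers 2 were higher and 1 lower, and their summed level went from 277 to 297 CPM before RA to 33.9 to 35.5 CPM after it, with Pecam1, an adhesion molecule also found on stem cells, falling from 265 to 13.3 CPM (-4.32 ± 0.08). Of 8 mesoderm markers 5 were higher and 1, T (brachyury), was lower. The 12 fibroblast or feeder markers split evenly, 6 higher and 6 lower, with a summed level of 405 to 437 CPM before RA and 287 to 301 CPM after it. In these bulk samples fewer cells of a type and less RNA per cell cannot be told apart, and the part of other cells in the results was not tested.

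The C48S line gave the same comparison, and the RA change differed between the lines for 7071 genes (39.4%) by the interaction term of the same fit. Nanog, Sox2 and Esrrb fell further in WT cells: the RA change in C48S was -3.19 for Nanog, -2.10 for Sox2 and -3.003 for Esrrb, differences of 2.82 ± 0.07, 2.82 ± 0.09 and 2.79 ± 0.09 (C48S minus WT, adjusted p = 2.18e-25, 6.37e-24 and 6.37e-24). For genes of the retinoid list the differences were 0.76 ± 0.98 for Cyp26a1 (adjusted p = 0.647), -0.60 ± 0.43 for Rarb (adjusted p = 0.286) and 0.92 ± 0.43 for Stra6 (adjusted p = 0.123). These missed the threshold, which does not show that the lines act alike. Meg3 and Rian had 16.7 and 17.1 CPM in undifferentiated C48S cells and 15.1 and 16.4 CPM after RA, against the rises in WT cells, differences of -3.03 ± 0.13 and -2.95 ± 0.10 (adjusted p = 2.5e-16 and 1.65e-22). Cdx2, which fell in WT cells, went from 0.523 to 38.2 CPM in C48S cells, a difference of 7.10 ± 0.33 (adjusted p = 1.12e-18). Htr5a went from 2.7 to 4.55 CPM there, a difference of 8.87 ± 0.45 (adjusted p = 7.13e-18). Rarg went from 169.9 to 149.7 CPM, where WT cells lost 1.72 on the log2 scale (difference 1.54 ± 0.07, adjusted p = 9.39e-19). The C48S line is 1 clone, so a property of the clone and an effect of the change in Oct4 cannot be told apart.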

How the data were processed

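The deposited files hold whole-number read counts per gene, 1 file per library, made by the authors with featureCounts 1.6.3 (strand option 2) on Ensembl release 104, per the file headers. STAR 2.7.9a, DESeq2 and the build mm39 are named in the submitters' processing notes. RNA was total RNA depleted of ribosomal RNA, per the labels. Symbols were matched for 52135 of 55416 gene identifiers (94.1%) from a GENCODE M21 table, and gene lists were matched by symbol. The members and lists were chosen with earlier results of these data known.

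All 12 libraries (8678088 to 13597098 counts) were fitted together in edgeR 4.0.16 (limma 3.58.1, R 4.3.3) as 4 group means, after edgeR's low-count filter with a minimum count of 10 and TMM scaling, with the robust quasi-likelihood test and Benjamini-Hochberg adjustment (threshold 0.05). The groups share 1 estimate of spread. CPM use the TMM-scaled library sizes. Where a group held 1 to 3 counts, the fold is a ratio of counts with an exact 95% interval, and where it held 0, a bound at 3 counts over the group. The difference between the lines is the interaction term. On simulated data with 15536 genes, changes of 1.25, 1.5, 2 and 4-fold were called for 48, 76, 100 and 100% of 50 genes each. Of the calls, 3.57% were of unchanged genes. No other genes were changed, the changed ones were drawn above a count floor, and every gene had the same spread setting. In the data 78.3% of genes were called, so these rates do not carry over to them.

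Named were Pou5f1, the 6 largest rises and 6 largest falls of each class among genes whose higher group averaged at least 5 CPM and whose groups did not overlap, up to 3 members per family by adjusted p, every member of families of at most 12, of the retinoid, marker and noncoding lists, and the 10 largest CPM differences in each direction; exceptions are named as such in the text, and some genes under this rule are not reported here. Other scalings, filters, a fold of 1.5 as the null, DESeq2 1.42.0, WT libraries alone, a replicate block and leaving out each WT library were tried as alternatives. The restriction to a mean of at least 5 CPM was chosen after seeing the data. Same-numbered libraries deviated together by correlations of 0.000762, 0.0214 and 0.029 across genes, so the numbers were taken as names only.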

Additional observations from a re-analysis of the deposited data

Results flagged for a closer look

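The RA change differed between the WT and C48S lines for 7071 genes by edgeR's interaction term, which is why the genes here are listed. Of 192 genes named and tested, 138 differed at an adjusted p under 0.05, and 13 of these by at least 3 log2 units. Over all genes the share at that threshold was 39.4%. Many of the named genes were picked for a large WT change, which is part of the interaction term, so the counts cannot be set against that share. Differences are given as C48S minus WT.

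The falls of several genes were smaller in C48S cells or not seen there. The difference was 8.87 ± 0.45 for Htr5a, which went from 2.7 to 4.55 CPM in C48S cells and from 20.7 to 0.0611 CPM in WT cells. It was 3.81 ± 0.35 for Prdm14, with 35.2 and 1.82 CPM in C48S cells against 113 and 0.395 CPM in WT cells. It was 3.08 ± 0.42 for Olig2, with 6.39 and 1.41 CPM against 27.9 and 0.7 CPM. Among noncoding RNAs it was 3.998 ± 0.90 for Gm14820, 4.18 ± 1.01 for Platr7 and 3.78 ± 0.48 for Mir295, for which the C48S levels after RA were 0.513, 0.397 and 2.73 CPM.

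Rises of other genes were smaller in C48S cells or not seen there. The difference was -4.64 ± 0.39 for Epha1, which already had 21 CPM in undifferentiated C48S cells against 0.156 CPM in WT cells. It was -3.64 ± 0.23 for H19, with 7.48 and 342 CPM in C48S cells. In the Dlk1-Dio3 domain it was -3.03 ± 0.13 for Meg3, -3.09 ± 0.48 for Mirg and -5.32 ± 2.14 for Mir541, whose C48S levels after RA were 15.1, 1.54 and 0.0256 CPM. Cdx2 went the other way, with a difference of 7.10 ± 0.33, and so did Klb, with 5.45 ± 0.65 from 0.0566 to 2.88 CPM in C48S cells and from 3.31 to 2.87 CPM in WT cells. Fitted values of genes with few counts depend on the prior count.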

How the results depend on the processing

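The 14054 genes changed by RA stayed within 1.5 times that number under every alternative but 1: with a fold of 1.5 as the null 9060 passed. The 2706 genes lower by at least 2-fold became 1696 under library totals, which raise every log2 fold change. The 7071 genes that differed between the lines became 2257 with a fold of 1.5 as the null. Leaving out each WT library in turn gave 13687 to 13862 genes changed, 4801 to 4966 higher and 2704 to 2802 lower by at least 2-fold, and 6420 to 6614 differences between the lines. DESeq2 called 7232 higher and 6388 lower.

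With the replicate block, the pairing by number, 13969 genes changed, 13936 of them called without it, and 6938 differed between the lines. The block changed no call of a named gene. WT replicate 1 did not correlate best with its own number (0.000762 against 0.00459).

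Of 2687 values of named genes under alternatives, 2660 kept direction and side of the threshold. Under library totals Rxra, Rxrb and Lncenc1 turned to 0.0468, 0.0578 and 0.0519 on the log2 scale. Hoxc13 was not called under 7 alternatives. These causes were not tested. Of 102 family medians 100 moved under library totals and 17 changed sign under some alternative, none larger than 0.32 in size. Depth limits genes with few counts before RA, whose folds carry wide counting intervals.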
